A study of Drosophila melanogaster with 2 samples.

Results

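Distal intronic peaks of the Drosophila melanogaster protein CG11398 are binding peaks whose summit, the base of highest signal, lay inside an annotated gene, in no annotated exon of any gene, and more than 2000 bp from every annotated transcription start. Of the 2712 peaks in the thresholded list of the dm6 genome build, 489 met this rule, which is 18.03% (exact 95% interval 16.6 to 19.5). The other summits lay within 2000 bp of a start in an intron (736) or elsewhere (1302), or farther from any start in intergenic sequence (166) or in an exon (19). A start here was the first base of any annotated transcript. When the 5′ end of each gene alone was counted as a start, 737 peaks met the rule.

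The peaks came from chromatin immunoprecipitation and sequencing (ChIP-seq) of whole embryos, collected over 0 to 24 h and of mixed sex, so all cell types and stages of embryogenesis were pooled. The embryos belonged to a transgenic line that stably expressed CG11398 with GFP fused to its C terminus, and the chromatin was precipitated with an antibody to GFP. The libraries formed 1 group of 2 biological replicates, numbered 1 and 3. The authors chose the thresholded peaks by the irreproducible discovery rate (IDR), which favours regions whose ranks agree between replicates. Some of the peaks kept still ranked far apart in the 2 replicates. They also deposited relaxed lists of 30000 regions each, for each replicate and for both pooled, that keep weak background regions. Each region carries a signal value whose normalization is not given in the sources used here, so values describe and rank regions. There was no second group and the control was not used here, so no test over samples was possible, and intervals below cover counting error only.

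Introns of fly genes, above all the long introns near the 5′ end of developmental genes, hold many enhancers, the short stretches of DNA where transcription factors bind and act on a promoter at a distance. An enhancer in an intron may act on the gene that holds it or on a neighbour. A ChIP-seq peak marks where the tagged protein was recovered with DNA, directly or through other proteins, and does not show that the place is an enhancer.

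The DNA under the strongest distal intronic peaks is shown first, because these summits carry the highest signal of their class in the thresholded list. Each sequence covers 50 bp on either side of the summit and was read from the RefSeq genome of Release 6 (dm6). Capitals mark the core site of Forkhead transcription factors, TGTTTAC or its reverse complement GTAAACA, where it occurs. The 8 strongest summits lay in Tlk, CG32486, Raf, JIL-1, S, osp, ush and Gug, in falling order of signal.
Tlk, chrX:3742163-3742263, plus strand: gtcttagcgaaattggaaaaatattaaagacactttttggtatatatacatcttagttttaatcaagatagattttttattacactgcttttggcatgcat
CG32486, chr3L:3060744-3060844, plus strand: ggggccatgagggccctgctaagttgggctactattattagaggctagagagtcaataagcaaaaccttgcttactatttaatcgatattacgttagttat
Raf, chrX:2297678-2297778, plus strand: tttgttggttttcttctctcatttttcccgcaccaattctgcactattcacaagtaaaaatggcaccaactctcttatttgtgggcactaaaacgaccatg
JIL-1, chr3L:11084715-11084815, plus strand: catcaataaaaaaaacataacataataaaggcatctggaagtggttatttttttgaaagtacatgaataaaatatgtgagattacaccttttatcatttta
S, chr2L:1072337-1072437, plus strand: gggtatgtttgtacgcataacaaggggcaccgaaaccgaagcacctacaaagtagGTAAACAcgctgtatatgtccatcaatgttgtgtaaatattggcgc
osp, chr2L:14685776-14685876, plus strand: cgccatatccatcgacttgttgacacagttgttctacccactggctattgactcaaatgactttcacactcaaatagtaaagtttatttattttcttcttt
ush, chr2L:485813-485913, plus strand: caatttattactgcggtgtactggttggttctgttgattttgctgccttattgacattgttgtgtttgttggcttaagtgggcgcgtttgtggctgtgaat
Gug, chr3L:8458293-8458393, plus strand: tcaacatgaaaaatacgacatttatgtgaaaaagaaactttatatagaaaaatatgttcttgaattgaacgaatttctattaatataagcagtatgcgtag
Of these 8 windows, S alone held the Forkhead core. Base composition varied widely among them, from 23.8% G and C at JIL-1 and 24.8% at Gug to 44.6% at S. The next 4 windows are those of the strongest further peaks with the core.
Oatp30B, chr2L:9525828-9525928, plus strand: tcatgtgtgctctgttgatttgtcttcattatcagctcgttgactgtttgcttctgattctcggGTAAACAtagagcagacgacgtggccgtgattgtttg
Rbfox1, chr3L:10519091-10519191, plus strand: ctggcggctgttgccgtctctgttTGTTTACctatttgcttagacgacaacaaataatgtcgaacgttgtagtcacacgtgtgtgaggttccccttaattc
gukh, chr3R:18998112-18998212, plus strand: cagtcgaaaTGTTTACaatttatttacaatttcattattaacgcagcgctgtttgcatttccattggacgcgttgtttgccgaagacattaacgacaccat
Atg17, chr3R:5672708-5672808, plus strand: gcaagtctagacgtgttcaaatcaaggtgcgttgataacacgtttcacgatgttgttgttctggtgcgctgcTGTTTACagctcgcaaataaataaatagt
The core stood 5′ to 3′ on the plus strand at Rbfox1, gukh and Atg17 and on the minus strand at S and Oatp30B.

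The strongest distal intronic peak lay in Tlk, which encodes the Tousled-like kinase of chromatin assembly, with a signal of 598.6. Its signal was 317.2 in replicate 1 and 281.8 in replicate 3, and the summit at chrX:3742213 lay 2316 bp from the nearest start. The peak in CG32486 had a signal of 515.5, with 249.4 in replicate 1 and 260.7 in replicate 3. Raf, the kinase that links Ras to the MAP kinase cascade, followed at 509.9 (269.4 and 242.3). These 3 peaks had the highest signals in both replicates, with replicate 1 the higher at Tlk and Raf and replicate 3 at CG32486. JIL-1, a kinase of histone H3, held a peak of 424.0 (229.0 in replicate 1 and 183.8 in replicate 3). S, which encodes Star, a protein needed to process a ligand of the EGF receptor, held one of 390.6 (230.0 and 164.9). The peak in osp had a signal of 375.8 (246.1 and 128.0), with replicate 1 well above replicate 3.

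The 25 strongest distal intronic peaks lay in 27 host genes, which are described here by what they encode. The gene ush encodes a cofactor of GATA proteins, and its peak had a signal of 352.6 (212.1 in replicate 1 and 137.4 in replicate 3). Gug encodes the corepressor Atrophin, with 351.4 (174.1 and 177.8). Mi-2, an ATPase that remodels nucleosomes, shares its peak of 333.7 (180.8 and 147.7) with Su(Tpl), which overlaps it.

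Other hosts of the 25 encode signalling proteins and nuclear receptors. InR, the insulin receptor, held a peak of 331.9 (192.0 in replicate 1 and 136.9 in replicate 3). The Wnt receptor gene fz held one of 318.2 (173.6 and 140.3), 22184 bp from any start. For the EGF receptor pathway, the peaks lay in the ligand gene vn at 291.2 (172.4 and 122.7), in the antagonist gene aos at 307.8 (169.0 and 135.1) and in the repressor gene aop at 294.4 (144.8 and 142.7). The aos summit also lay inside CG33158. The nuclear receptor gene Hr4 held 2 of the 25, at 285.1 and 281.9. The summit at Hr3, another nuclear receptor gene, had 318.8 (170.2 and 149.6) and lay inside CG46321 and CG12912 as well. The remaining hosts were Oatp30B at 327.6, kirre at 324.8, Raf again at 305.9, CG34417 at 302.0, CG32264 at 299.99, Pits at 299.4, CG12769 at 293.0 and babos at 284.8. All 25 had a signal of at least 134.5 in replicate 1 and 111.9 in replicate 3, and none ranked below 275 in replicate 1 or 333 in replicate 3. Of the 25, 21 lay in the first intron of at least 1 transcript.

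As a class, distal intronic peaks had a median signal of 115.6 (quartiles 92.3 and 149.9), which was close to the median of 115.1 over all thresholded peaks. They were scarce at the very top of the list. Distal intronic peaks made up none of the 25 strongest peaks (0%, exact 95% interval up to 13.7), 5 of the 100 strongest (5%, 1.64 to 11.3) and 28 of the 250 strongest (11.2%, 7.57 to 15.8). Among the 678 strongest peaks they held 14.6%, and among the next 678 they held 21.7%. Peaks in introns near a start had a similar median of 119.1 but a higher upper quartile, 181.8 against 149.9, and a maximum of 1410 against 598.6. Most peaks had the same width: 449 of the distal intronic peaks (91.8%) were 416 bp wide, while the 25 strongest had a median width of 196 bp.

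Each of the 489 peaks overlapped a relaxed region of both replicates. Where more than 1 region overlapped, as at 206 peaks, the one with the nearest summit was taken. Replicate 1 signals ran from 20.9 to 317.2 with a median of 63.8, and replicate 3 signals from 13.4 to 281.8 with a median of 51.9. Replicate 1 was the higher at 356 of the peaks (72.8%) and at 63.6% of the other thresholded peaks, and the median log2 ratio of replicate 1 to replicate 3 was 0.27 (SD 0.52 over peaks) against 0.15. The depth of the libraries is unknown, so the sign of this ratio was not read as a difference in binding. Across the 489 peaks the signals had a Spearman correlation of 0.558 and a Pearson correlation on the log2 scale of 0.637, and across the 2223 other peaks 0.600 and 0.734. These describe peaks of the same 2 libraries, chosen by a rule that favours agreement. The 2 replicate summits lay a median of 26 bp apart, and within 100 bp at 457 peaks (93.5%).

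**Figure D1:**
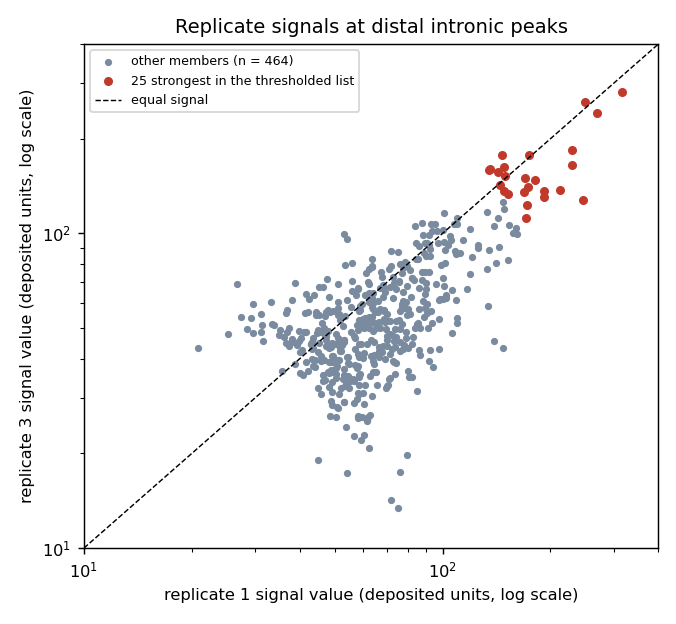
Signal value of each of the 489 distal intronic peaks in replicate 1 (horizontal, log scale) and replicate 3 (vertical, log scale), in deposited units, with the line of equal signal. The 25 strongest peaks (red) sit at the upper right, at 134.5 or more in replicate 1 and 111.9 or more in replicate 3, and 356 points lie below the line.

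The 5 peaks with the highest and the 5 with the lowest ratio of the replicates had thresholded signals of 80.7 to 191.0. The highest ratio of replicate 1 to replicate 3 was at a peak in CG6966, with 75.2 in replicate 1 and 13.4 in replicate 3. Next came peaks in smash, with 72.0 and 14.2, in jumu, a Forkhead gene, with 76.1 and 17.4, and in shn, which encodes a zinc finger protein of Dpp signalling, with 79.4 and 19.7. At jumu, smash and shn a stronger replicate 3 region also overlapped the peak, with 56.8, 21.9 and 46.2, and the replicate 1 region at jumu was also the nearest one for the neighbouring peak. Mef2, the muscle differentiation factor, held the fifth, with 147.2 and 43.3. The lowest ratios were at lncRNA:iab8, a long RNA of the bithorax complex, with 26.7 in replicate 1 and 69.2 in replicate 3, and at EDTP, with 20.9 and 43.4. Peaks in Eip75B (29.7 and 59.7), Fas3 (27.4 and 54.4) and Dad (25.3 and 47.9) followed. In these 5 replicate 3 was the higher, and each ranked within the first 2141 regions of that replicate. By rank, 421 of the 489 peaks lay among the first 2712 regions of replicate 1, 397 among those of replicate 3, 338 among both and 9 among neither.

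The 489 summits lay in 331 host genes, counting each gene where genes overlap. Of the summits, 464 lay inside 1 gene and 25 inside more, at most 3. Protein-coding genes made up 320 of the hosts and non-coding genes 11. In all, 4333 genes held intron that could carry such a peak, meaning intron bases more than 2000 bp from any start, and 7.64% of them were hosts. A single peak was found in 219 hosts, 2 peaks in 71, 3 in 23, and 4 or more in 18, which together held 81 of the peaks. Hosts were long genes, with a median length of 31452 bp and from 4323 to 394149 bp. Their median eligible intron was 19.2 kb, against 1.66 kb over all genes with any.

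Host genes became more common with the length of intron on offer, while peaks per length were highest at 1 to 10 kb and fell above it. Among the 1875 genes with up to 1 kb of eligible intron 1 was a host (0.0533%), with 1.85 peaks per Mb. Among genes with 1 to 10 kb of eligible intron 6.98% were hosts (exact 95% interval 5.72 to 8.41), with 21.6 peaks per Mb. From 10 to 30 kb the share was 19.8% (16.8 to 23.1) with 15.7 per Mb, from 30 to 100 kb 27.2% (22.5 to 32.4) with 10.8 per Mb, and above 100 kb 34.8% (21.4 to 50.2) with 4.44 per Mb. Hosts also had a thresholded peak within 500 bp of one of their own starts more often than genes with eligible intron and no distal intronic peak. The shares were 120 of 331 (36.3%, 31.1 to 41.7) and 629 of 4002 (15.7%, 14.6 to 16.9). The same order held in each of these length classes: 33.3% against 16.8% at 1 to 10 kb, 38.7% against 15.5% at 10 to 30 kb, 37.5% against 10.6% at 30 to 100 kb, and 25% against 3.33% above 100 kb, where the intervals overlap.

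The host with most distal intronic peaks was sbb, which encodes the corepressor Scribbler, with 8 peaks of 81.6 to 168.6 in 46.8 kb of eligible intron. Their summits spanned 46634 bp, and neighbours lay 1325 to 19144 bp apart. The strongest of the 8 had 101.1 in replicate 1 and 68.0 in replicate 3. kirre, an adhesion gene of myoblast fusion, and lncRNA:CR44357 held 6 peaks each. In kirre, a gene of 394149 bp, a single peak of 324.8 stood above the others, which had 80.8 to 117.4. The 6 in lncRNA:CR44357 had 81.5 to 152.9, and 4 of them lay inside the overlapping gene CG1677 too.

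Raf held the tightest of the long series, 5 peaks within 6367 bp at chrX:2297728 to chrX:2304095. In the direction of transcription their signals were 509.9, 151.8, 305.9, 168.2 and 234.2. Replicate 1 had 269.4, 87.4, 148.8, 85.7 and 143.5 at these summits, and replicate 3 had 242.3, 71.4, 162.8, 82.8 and 90.5. In both replicates the peaks with signals of 509.9 and 305.9 were the strongest, and the gaps between neighbours were all of 1442 to 1796 bp. Raf had no thresholded peak within 500 bp of its own starts.

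The other hosts with 5 peaks were ush, Hr4, Eip75B and px. In ush the 5 signals were 91.6, 352.6, 268.8, 96.7 and 145.7 from the 5′ end, over 36493 bp. In Hr4 they were, in the same order, 285.1, 281.9, 174.5, 86.2 and 146.2, with the last alone in the 3′ part of the gene. Eip75B, a nuclear receptor gene induced by ecdysone, held 5 of 96.3 to 197.4, and px, which encodes Plexus, 5 of 87.9 to 147.2. Among hosts with 4 peaks, fz held a series over 68595 bp (84.8 to 318.2). CHES-1-like, a Forkhead gene, held 4 of 106.7 to 201.2 in 7.45 kb of eligible intron and 12 thresholded peaks inside the gene in all. Ranked with these by summed signal were CG46385 (81.2 to 162.6) and cic, which encodes the repressor Capicua (100.9 to 161.7).

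**Figure D2:**
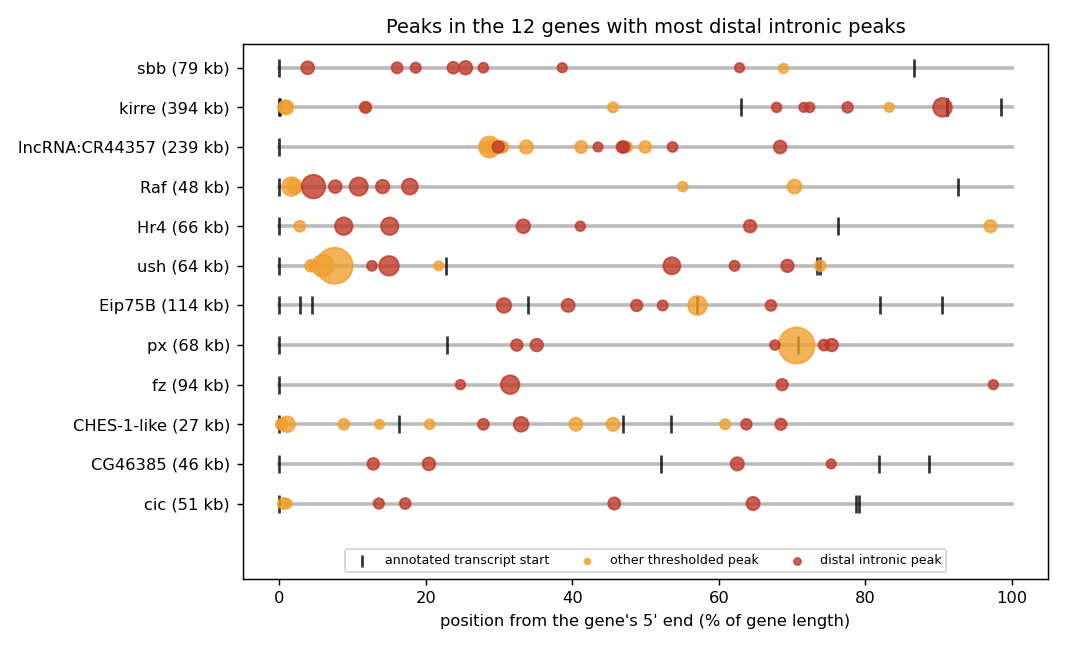
Position of thresholded peaks along the 12 genes with most distal intronic peaks, as percent of gene length from the 5′ end of the gene; point area rises with signal and ticks mark annotated transcript starts of the gene. sbb has 8 distal intronic peaks (red), and the 5 of Raf sit together in 6367 bp near its 5′ end.

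Most distal intronic peaks lay in first introns. Of the 489 summits, 318 (65.0%, exact 95% interval 60.6 to 69.3) lay in the first intron of at least 1 transcript. The eligible intron bases themselves were in such an intron for 37.6%, which gives 20.4 peaks per Mb in first introns and 6.62 per Mb in the others. Relaxed regions in the same kind of sequence that overlapped no thresholded peak lay there for 54.4% (53.1 to 55.6), between the peaks and the bases. The exon-free stretch around a summit had a median length of 11126 bp and ran from 493 to 94461 bp.

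The nearest start lay a median of 5017 bp away. It belonged to a host gene at 332 summits (67.9%) and to another gene at 157. Summits lay downstream of it at 330 and upstream at 159. Peaks per Mb of eligible intron fell with distance, from 19.7 at 2 to 3 kb (105 peaks) and 17.7 at 3 to 5 kb (138) to 14.4 at 5 to 10 kb (159), 7.70 at 10 to 20 kb (66) and 2.43 beyond 20 kb (21). Relaxed regions without a peak thinned out too, from 222 to 46.0 per Mb over the same range, so weak regions were also sparser far from starts. The median signal of the peaks fell only from 123.0 to 102.0.

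**Figure D3:**
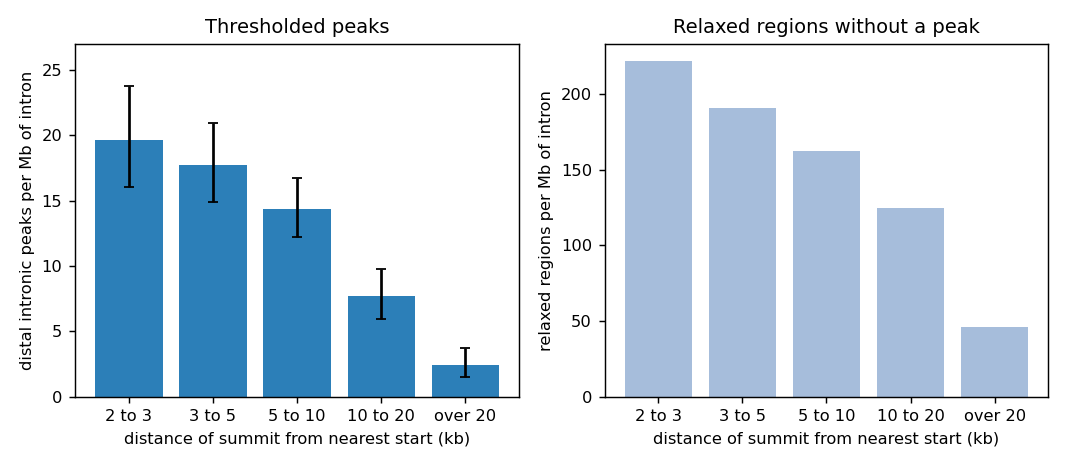
Distal intronic peaks (left) and distal intronic relaxed regions that overlap no thresholded peak (right) per Mb of eligible intron. Columns stand for the distance of the summit from the nearest start in kb. Error bars, drawn at left only, are exact 95% Poisson intervals. Peaks fell from 19.7 to 2.43 per Mb and relaxed regions from 222 to 46.0 per Mb.

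The farthest summit lay in kirre, 36694 bp from the nearest start, with a signal of 89.4. Next came Snoo, which encodes a relative of the Ski and Sno proteins, at 34870 bp (141.2), kirre again at 33572 bp (80.8), CG43759 at 32190 bp (139.2), and mgl, which encodes a lipoprotein receptor, at 29971 bp (102.8). None of these 5 was strong, at 80.8 to 141.2. At the 2000 bp limit, the nearest intronic peaks outside the rule lay in NFAT at 1984 bp (118.5), CG3764 at 1987 bp (223.2) and CHES-1-like at 1997 bp (97.7). Just inside it lay hiw at 2013 bp (195.7), the shared intron of lncRNA:CR44357 and CG1677 at 2018 bp (130.6) and lncRNA:CR44320 at 2019 bp (255.5).

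Distal intronic peaks numbered 11.8 per Mb of eligible intron (exact 95% Poisson interval 10.8 to 12.9, over 41.4 Mb). By chromosome arm the rate was 13.5 per Mb on X, 13.2 on 2L, 12.6 on 2R, 11.4 on 3L and 10.1 on 3R, with overlapping intervals for neighbours in this order. Among these 5 arms X and 3R differed most (11.1 to 16.3 against 8.30 to 12.1), and those intervals overlap as well. No distal intronic peak lay on chromosome 4, whose 0.445 Mb of eligible intron allows a rate of up to 8.28 per Mb. That limit lay below the intervals of the other arms, and only just below that of 3R. Chromosome 4 was sparse in thresholded peaks of any class, with 11 in all. These made 8.16 per Mb of the arm, against 20.3 over all arms.

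Pairs of neighbouring peaks in the same host numbered 174. Their summits lay a median of 6152 bp apart (quartiles 1843 and 17250), with 81 pairs (46.6%) within 5000 bp and 17 within 1000 bp. The closest pair, 199 bp apart, was the pair of weaker peaks in Tlk, with signals of 186.1 and 97.4. Pairs in jumu (208 bp; 114.3 and 96.3), Dad (208 bp; 200.1 and 100.7), Ubr3 (222 bp; 163.7 and 117.1) and Smr (227 bp; 124.0 and 100.9) followed, and such pairs overlap at the common width. Counting peaks of any class, the nearest neighbour lay within 1000 bp for 43 of the 489 (8.79%) and for 13.5% of the other thresholded peaks, at medians of 6395 and 7182 bp.

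In the pooled relaxed list 6526 regions met the same position rule, and 595 of them (9.12%, 8.43 to 9.84) overlapped a thresholded peak. Over all 30000 pooled relaxed regions the share was 11.2%. It was 16.1% for introns near a start (15.2 to 17.1) and 6.92% for distal intergenic regions (5.99 to 7.95). Within distal introns the share declined with distance, from 10.2% at 2 to 3 kb to 5.91% beyond 20 kb.

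Host genes were then read by pathway, from lists that were drawn up with earlier results of these data in view, so their order is a description. For each list the share of genes with eligible intron that were hosts is set beside the 7.64% over all such genes. Of 15 lists with any eligible gene, 14 had a higher share. The listed genes hold more eligible intron than most: among genes with at least 10 kb of it 22.9% were hosts, and 10 lists were above that. Segmentation and Hox genes (22.2%, exact interval 2.81 to 60.0) and axon guidance genes (21.7%, 7.46 to 43.7) then fell just below it. Neuronal fate genes (18.75%, 4.05 to 45.6) and Forkhead and Sox genes (0%, 0 to 60.2) fell below it as well. Each of these intervals includes 22.9%, so the counts are too small to set these lists apart from it. The remaining list below it was that of ion channel and synapse genes. It stood at 3.85% (1 of 26, 0.0973 to 19.6), an interval that leaves out 22.9%. Cytoplasmic ribosomal protein genes, 92 in number, held no eligible intron.

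Genes of BMP and activin signalling, the pathway of the ligand Dpp that patterns the dorsal embryo, had the highest share. Of 15 eligible genes 9 were hosts (60.0%, exact 95% interval 32.3 to 83.7), with 82.9 peaks per Mb against 11.8 over all eligible intron, and all 9 genes with at least 10 kb of eligible intron were among them. The ligand gene dpp held 1 peak of 157.1 (78.0 in replicate 1 and 78.5 in replicate 3). Its receptor gene tkv held 1 of 108.0 (69.1 and 39.8). Genes for extracellular binding proteins also held peaks: cv-2 at 219.3 (125.9 and 90.0), the antagonist gene sog at 132.0 (66.9 and 66.9), and the glypican genes dlp at 199.9 (97.4 and 92.9) and dally at 120.1 (45.2 and 67.8). Within the cell, Dad, which encodes the inhibitory Smad, held 4 peaks with up to 200.1 (103.5 and 92.0). The nuclear proteins ush and shn completed the 9, and ush, a target of the pathway in the embryo, had the strongest peak. Judged by the strongest peak of each gene, the replicates lay close together at dpp, sog and dlp. Replicate 1 was the higher at cv-2, tkv, Dad and ush and replicate 3 at dally. A weaker Dad peak had 25.3 in replicate 1 and 47.9 in replicate 3. The shn peak of the highest ratios above had 79.4 and 19.7, with a stronger replicate 3 region of 46.2 also overlapping it. The peaks of dpp, tkv, sog and dally fall outside the naming rule and were added after their values were seen, to complete the pathway.

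For EGF receptor, FGF and MAP kinase genes 8 of 21 were hosts (38.1%, 18.1 to 61.6), with 44.6 peaks per Mb. They were Raf, aos, aop and vn, described above, and CG31145, pnt, ths and ru. The place of CG31145 in these pathways was not checked here, and it held 3 of the 16 peaks of the list. For ecdysone and nuclear receptors 5 of 15 were hosts (33.3%, 11.8 to 61.6), with 44.1 peaks per Mb: Hr3, Hr4, Eip75B, ftz-f1 (strongest 124.3) and EcR. JAK-STAT genes had 3 of 7 (42.9%, 9.90 to 81.6). They were Socs36E, a feedback inhibitor, at 153.0 (81.6 in replicate 1 and 62.7 in replicate 3), the phosphatase gene Ptp61F at 123.0 and the transcription factor gene Stat92E at 112.4. These intervals overlap that of the BMP list.

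Other developmental lists had lower shares of hosts among all their eligible genes, with intervals that overlap that of the BMP list. Those of Notch were 5.49 to 57.2 and of Wnt and Hedgehog 8.22 to 47.2. The order changed among genes with at least 10 kb of eligible intron. There Notch genes stood at 50% (3 of 6) and ecdysone and nuclear receptors at 45.5% (5 of 11). Notch genes had 3 of 12, led by N, the receptor, at 255.3 (161.3 in replicate 1 and 99.4 in replicate 3). The others were fng at 126.3 and mam at 124.1. The listed symbol Dl matched no gene of the annotation, so Dl was not examined and is not among the 12. Wnt and Hedgehog genes had 5 of 21, with fz ahead of the Wnt antagonist gene nkd at 181.3, the Hedgehog receptor gene ptc at 142.1 and the Wnt co-receptor gene arr at 95.04. Segmentation and Hox genes had 3 of 14, namely cad at 161.9, Antp at 141.0 and lab at 103.5. Neuronal fate genes had 4 of 23, with grh at 178.2, brat at 110.3, ttk at 107.8 and lola at 80.0. Forkhead and Sox genes had 2 of 14, CHES-1-like and jumu. These genes hold little eligible intron (0.107 Mb in all), so that the 6 peaks of this pair made 55.8 per Mb for the list, and none of its 4 genes with at least 10 kb was a host. Peaks per Mb were 25.5 for Notch, 27.9 for Wnt and Hedgehog, 17.1 for segmentation and Hox and 8.46 for neuronal fate genes, the last below the 11.8 of all eligible intron.

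Cell adhesion genes had 8 of 28, led by kirre, cno at 158.0, Fas3 at 154.3 and caps at 149.9. Axon guidance genes had 5 of 31: the Netrin receptor gene fra at 153.8, the ligand genes sli at 140.7 and NetA at 111.6, side at 92.9, and trio. Muscle and cytoskeleton genes had 4 of 23, with Mef2 at 191.0, how at 135.3, the integrin gene mew at 131.6 and mbl at 87.1. RNA-binding protein genes had 6 of 18, with Rbfox1 at 245.6 (139.0 in replicate 1 and 106.0 in replicate 3), bru2 at 151.5, how and sm at 110.97. Regulators of small GTPases had 5 of 16, with RhoGAP19D at 138.6, raskol at 119.5, siz at 115.9 and CenG1A at 103.7. With at least 10 kb of eligible intron, 5 of 6 of these regulators were hosts (83.3%, exact interval 35.9 to 99.6). Peaks per Mb were 28.6 for regulators of small GTPases and 14.8 for muscle genes. They were below the 11.8 of all eligible intron for cell adhesion (11.1), RNA-binding (6.98) and axon guidance genes (5.31), although each of these lists had more hosts than the 7.64% of all genes.

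Ion channel and synapse genes formed the single list with a share below the 7.64% of all genes, though its interval includes that value. Of 32 eligible genes 1 was a host (3.13%, 0.0791 to 16.2), the potassium channel gene Shal with a peak of 92.2 (47.6 in replicate 1 and 44.0 in replicate 3). The list holds 1.02 Mb of eligible intron, so it had 0.983 peaks per Mb. Relaxed regions were sparse in it too, at 26.5 per Mb against 158 over all eligible intron, while in the BMP list they stood at 486 per Mb. Of the relaxed regions, 21.95% overlapped a peak in the BMP list, 3.70% in the ion channel list and 9.12% over all distal introns.

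**Figure D4:**
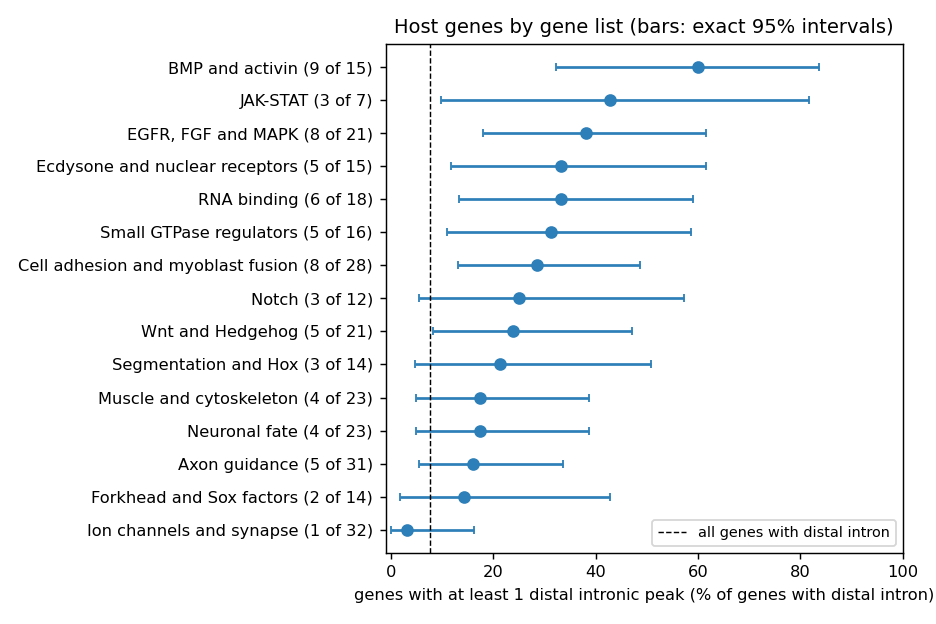
Share of genes with eligible intron that held at least 1 distal intronic peak, in percent, for 15 gene lists; the counts of hosts and eligible genes stand beside each name, error bars are exact 95% intervals and the dashed line is the share over all 4333 genes, 7.64%. BMP and activin genes stand at 60.0% and ion channel and synapse genes at 3.13%.

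The sequence under the peaks was read over 50 bp on either side of the summit. The Forkhead core TGTTTAC, searched on both strands like the other letters below, occurred at 43 of the 489 summits (8.79%, exact 95% interval 6.44 to 11.7). It occurred at 4.63% (3.80 to 5.59) of the other thresholded peaks and at 3.20% (2.77 to 3.68) of the 5931 distal intronic relaxed regions that overlap no peak. In introns near a start it was at 6.11% of peaks (4.49 to 8.10), an interval that overlaps that of the distal ones. The share fell away from the summit, from 8.79% within 50 bp to 5.11% at 50 to 100 bp, 4.09% at 100 to 150 bp and 3.07% at 150 to 200 bp. These steps place a core by its centre, and so count a few that reach past the window used above. In the relaxed regions they gave 3.36% within 50 bp of the summit and 2.36% at 150 to 200 bp. A fall at the 489 peaks was not particular to the Forkhead core. Between the same 2 steps the GATA letters AGATAA fell from 9.20% to 5.93%. The STAT letters TTCNNNGAA fell from 4.09% to 1.84%, while the Ets letters CGGAAG rose from 1.23% to 3.07%. The 43 peaks lay in 40 host genes, and 6 of them held the core more than once. Their median signal was 113.4, against 115.7 for the peaks without it. The strongest were those in S, Oatp30B, Rbfox1, gukh and Atg17 whose sequences are given above.

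The DNA replication-related element TATCGATA, a common promoter word in flies, was in none of the 489 windows (0%, exact 95% interval up to 0.752), and in 2.56% (1.95 to 3.31) of the other thresholded peaks. Among peaks in introns near a start it was in 2 of 736, and among the 166 distal intergenic peaks in none. In the distal intronic relaxed regions without a peak it was in 0.202%. Its rarity was thus not particular to distal intronic peaks. The GATA letters AGATAA occurred in 9.20% of the distal intronic windows (6.79 to 12.1), 6.34% of the other peaks and 6.20% of the relaxed regions. The homeodomain core TAATTA stood at 8.18% (5.91 to 10.97), 6.21% and 5.70%, an order that turned without replicate 3 (5.95% against 6.23% of all peaks), and the STAT letters TTCNNNGAA at 4.09% (2.52 to 6.25), 2.38% and 2.78%. The Ets letters CGGAAG were rarer in distal intronic peaks, at 1.23% (0.452 to 2.65), 2.47% and 2.55%. The early embryonic Zelda word CAGGTAG was in 1 window (0.204%), in 0.405% of the other peaks and in 0.540% of the relaxed regions. Of these words, the Forkhead core and the replication-related element had intervals in distal intronic peaks apart from those of the other peaks. Most of those other peaks lay within 2000 bp of a start. A match of letters describes the window and does not show binding of the named factor.

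**Figure D5:**
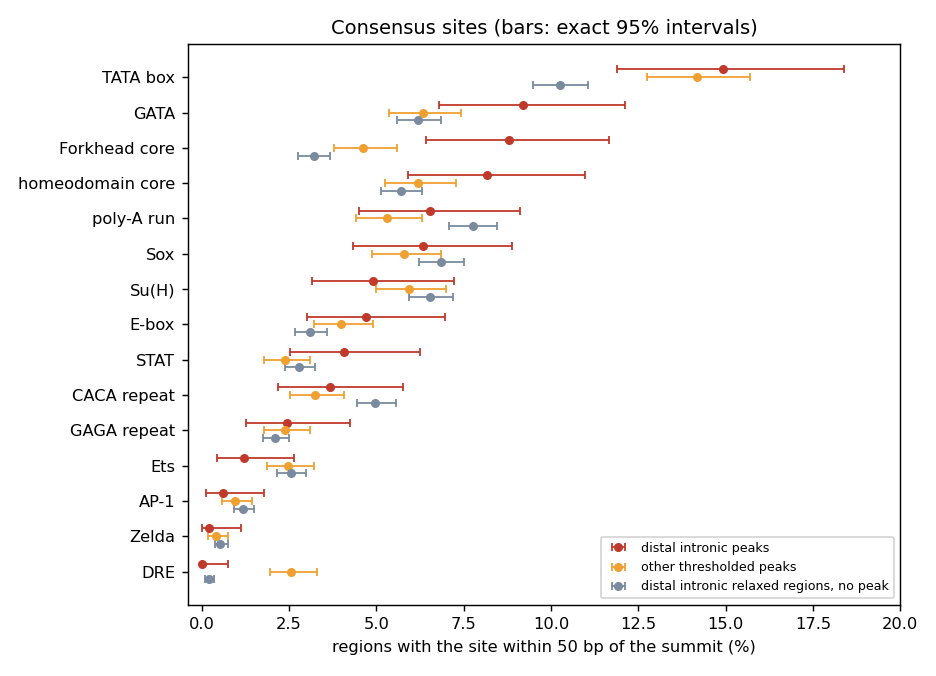
Share of regions, in percent, with each consensus site within 50 bp of the summit, for 489 distal intronic peaks (red), 2223 other thresholded peaks (orange) and 5931 distal intronic relaxed regions without a peak (grey); bars are exact 95% intervals. The Forkhead core stands at 8.79%, 4.63% and 3.20%, and the DRE, TATCGATA, at 0%, 2.56% and 0.202%.

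Distal intronic summits were poor in G and C. Over 100 bp on either side the mean was 37.8% (SD 5.72 over peaks), against 39.6% for the other thresholded peaks. It was 42.5% for the distal intronic relaxed regions without a peak and 40.0% for all eligible intron. Peaks in introns near a start (38.4%) and distal intergenic peaks (38.5%) came close to the distal intronic mean. The low value was thus not particular to distal intronic peaks. Words such as the Forkhead core are themselves rich in A and T, and the part of base composition in the shares above was not tested. A ranking of all 7-letter words by their excess in the other thresholded peaks gave 20 leading words, of which 18 were more frequent in distal intronic peaks than in the relaxed regions. The median ratio of the 20 was 1.61, and over all 789 words ranked it was 1.30. Most of the 789 words were thus also more frequent in distal intronic peaks, and their exact share was not counted.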

How the data were processed

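ChIP-seq of CG11398 fused to eGFP in whole embryos gave 2 biological replicates of 1 group, per the labels. Per the notes deposited with the files, the relaxed lists were derived from the alignments and a control, and the thresholded list from the relaxed lists of both replicates. For the aligner, the peak caller and the IDR threshold nothing is given in the sources used here, and without read counts the depth is unknown. The signal value deposited for each region was used unchanged, and how it was normalized is not stated. The dm3 lists and the control were not used here.

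Summits were placed on the RefSeq genome of Release 6 and the Ensembl release 115 annotation (18164 genes on 6 arms, without transposons), with Python 3.11.15, pandas 2.3.3 and scipy 1.17.1. Overlap meant at least 1 bp shared, and bedtools 2.31.1 gave the same 3352 overlapping relaxed regions. Replicate values are those of the overlapping region with the nearest summit. Classes, overlaps and site searches were checked on a small simulated annotation. Genes were matched to 16 lists by symbol or older symbol. The 2 symbols without a match were Dl of the Notch list and nos of the RNA-binding list. The 15 consensus sites were searched on both strands. Words of 7 letters were ranked if they occurred in at least 50 of the other peaks.

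The members, lists, sites and alternatives were chosen with earlier results of these data known. Genes are named by rule: hosts of the 25 strongest peaks, the 12 hosts with most peaks, the 5 highest and 5 lowest replicate ratios, up to 4 hosts per list by signal, the 3 peaks on either side of the 2000 bp limit, the 5 farthest peaks and the 5 closest pairs. Intervals are exact (Clopper-Pearson or Poisson) at 95%. Alternatives were other start sites, distances, windows, overlaps and backgrounds, the stronger 50% of peaks, and each replicate left out, which took the 2712 top regions of the other one.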

Additional observations from a re-analysis of the deposited data

How the results depend on the processing

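No paired analysis was possible because the series holds a single group. The number of distal intronic peaks (489) depended on how a start and its distance were set. Counting the 5′ ends of genes alone as starts gave 737 peaks. A limit of 1000 bp gave 9.96% of relaxed regions called (from 9.12%) and 14.5 peaks per Mb (from 11.8). A limit of 5000 bp gave 246 peaks, 184 host genes (from 331), 8.35% called, 8.70 per Mb and a median signal of 0.966 times that of all peaks (from 1.00). The stronger 50% of peaks, a list of 1356, held 246 distal intronic peaks in 203 host genes at a relative median of 0.930. The lower counts follow from the shorter list, and the share of distal intronic peaks was 18.1% (from 18.03%). Relaxed regions with the same start and end as a peak made up 7.49%, and a window of 100 bp raised the Forkhead share to 13.3% (from 8.79%). Leaving out a replicate gave 471 to 504 peaks, 329 to 341 hosts and relative medians of 0.963 to 0.999. Spacings were 4646 to 6113 bp (from 6152), with 11.4 to 12.2 per Mb and Forkhead shares of 7.86% to 10.5%. Both times 14 lists stood above the overall share. With the relaxed list of a single replicate in place of the pooled one, 8.82% to 9.38% were called. The thresholded list still came from both replicates, so this share cannot show what leaving one out would change. The lower relative median came without replicate 1 and the lower spacing without replicate 3. The causes were not tested. The same-coordinate rule, the strongest overlapping region (log2 ratio 0.27, as before) and leaving out replicates for spacing and lists were added after seeing the data. In all, 32 alternatives, some of them given above, stayed within the limit set for each value. The limit was 1.5 times for counts and the exact counting interval for shares and rates. For the other values it was their spread between replicates or over peaks. The homeodomain core turned from more to less frequent than over all peaks without replicate 3 (5.95% against 6.23%) and in the stronger 50% (7.32% against 7.37%), and Forkhead and Sox hosts fell from 14.3% to 0% at 10 kb or more of eligible intron. Depth limits what a missing peak means: with no read counts, absence from the list does not show absence of binding.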
